A study of Mus musculus with 69 samples.

Results

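Hearts of adult male CD-1 mice were profiled 1 h after nose-only inhalation of hydrogen cyanide (HCN) at 327 ppm and compared with hearts of mice that breathed air through the same route, also taken at 1 h. The comparison holds 8 arrays, 4 titled HCN 1 h and 4 titled Air 1 h, of the 69 arrays in the series, and the members described are all probe sets bright enough to be tested. The mice were not anesthetized and weighed 20 to 35 g. CD-1 is an outbred stock with no transgene, and nothing but the gas separates the groups in the labels. Total RNA of the whole heart was labelled and hybridized to Affymetrix HT MG-430 PM arrays, so each value is a mean over every cell type of the organ. Fewer cells of a type and less RNA per cell cannot be told apart. The titles call the arrays biological replicates, and each was taken as 1 mouse. The other arrays cover later times after HCN (2, 4 and 24 h) and hearts after subcutaneous potassium cyanide (KCN) at 8.0 mg/kg or saline.

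Cyanide binds the haem and copper site of cytochrome c oxidase and stops mitochondrial respiration, on which the heart depends for most of its ATP. Tissues answer abrupt stress first through immediate early genes. These need no new protein to be transcribed, because the factors that drive them (serum response factor, CREB and NF-kB) are already present and are switched on by kinases. Many of their products are transcription factors of the AP-1, Egr and Nr4a families, and many others are inhibitors that switch the same kinases off again. Their messages decay within a short time, so an early harvest can catch them at their height.

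Ventricular cardiomyocyte markers were at the top of the scale on all 8 arrays. Their mean log2 signal over 8 genes was 12 to 12.2 in air and 12 to 12.1 after HCN, and Myl2, the regulatory light chain of ventricular myosin, stood at 13.57 ± 0.02 in air and 13.53 ± 0.05 after HCN (SD, n = 4). The marker lists of 14 other cell types held 1 called gene in all, the endothelial sialomucin Emcn, among 89 tested members. Over all genes 2.87% were called. Airway and lung epithelium markers varied within both groups. Their mean level ran from 3.99 to 9.72 in air and from 3.21 to 9.3 after HCN, and replicate 4 was the low array in each group. Thymocyte markers ran from 2.7 to 5.65 in air and from 2.74 to 2.94 after HCN. Cd8b1, Cd4 and Themis lay below the level of 3.23 that served as the filter. Their part in the results was not tested, apart from a fit that adjusted for the level of Scgb1a1 and Bpifa1, secreted proteins of the airway, which called 727 probe sets against 718. The 3' to 5' log2 signal ratio of actin, which goes up when RNA is degraded, was 0.415 ± 0.0593 after HCN and 0.503 ± 0.173 in air (SD, n = 4; exact permutation test, two-sided, p = 0.4). The ratio for Gapdh gave p = 0.2 and the 18S ribosomal control p = 0.371 in the same exact test. The smallest p that 4 against 4 arrays allow is 0.0286. The 8 arrays correlated with each other at 0.981 to 0.992 over the tested probe sets.

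One hour after HCN some of the immediate early genes were many times their air level, while the largest falls stayed under 4-fold. The strongest rises were those of Fos (27.6-fold), Egr1 (26.6-fold), the neutrophil chemokine Cxcl1 (23.1-fold), Atf3 (19.9-fold) and the endothelial early gene Apold1 (16.1-fold). Of 26773 tested probe sets, 718 passed at an adjusted p of 0.05 (2.68%), 369 of them higher (1.38%) and 349 lower (1.3%). The gene lists were chosen with earlier results of these data known, so their shares are descriptions and no test. Counts over gene lists read each gene from its brightest probe set. On that basis 178 of 12436 genes rose (1.43%) and 179 fell (1.44%), or 2.87% together, and the median log2 change over all genes was -0.011. The sizes were unequal. Among the rises 129 probe sets passed 2-fold, 39 passed 4-fold and 15 passed 8-fold, whereas 25 falls passed 2-fold and 0 passed 4-fold. Air and HCN arrays did not overlap at all for 328 of the 369 rises (88.9%) and for 295 of the 349 falls (84.5%), against 9.18% of all tested probe sets. Of the probe sets that rose, 56 had a mean below 3.23 in air and were tested because another group was brighter. Of those that fell, 32 had a mean below 3.23 after HCN. Values that low say little about the true level, so the size of a rise from them or of a fall to them is uncertain. Among risen genes named here this holds for Fosb, Cxcl2, Egr2, Egr3, Ccl7, Ccl4, Il6, Pmaip1, Rnd1, Rgs16 and 1 probe set of Nfe2l2. The count of 718 was 474 without replicate 4 of the HCN group and between 490 and 647 without any other array.

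Sequence upstream of the risen genes is shown with the short motifs found in it. The letters TGACG form the core of the site that CREB and ATF proteins bind. They occurred on either strand within 250 bases before the start of 14 of the 21 genes that rose over 4-fold and had a RefSeq promoter (66.7%; 26 genes rose that much). The share was 34.7% among the genes called only as risen (196 matched of 244), 25.1% among those called only as fallen (195 matched of 239), 25.9% among genes tested and 17.9% over all promoters of the table. The genes of the largest rises are part of the genes that rose, and both sets were chosen by the HCN contrast. A second motif, the NF-kB consensus, was present in 23.8%, 14.3%, 11.8%, 8.54% and 7.01% of the same sets, counted on both strands and with overlapping matches counted once. Of the other motifs searched, the full CREB site TGACGTCA was in 1 of the 21 genes that rose over 4-fold (4.76%, against 2.65% of genes tested). The AP-1 site TGAGTCA and the CArG box of serum response factor were in 0 of the 21 (3.1% and 1.16% of genes tested). Only full matches within 250 bases before 1 start per gene were counted, so sites farther away or of other letters were not seen. TATAAA was in 23.8% (7.21% of genes tested) and GGGCGG in 71.4% (57.3%). The 5 promoters below (RefSeq, GRCm38.p6, all on the plus strand) belong to genes that rose over 4-fold and differ in which motif they hold. Capitals mark TGACG, or CGTCA where it is on the other strand, and the NF-kB consensus.
Fos, chr12:85473640-85473889: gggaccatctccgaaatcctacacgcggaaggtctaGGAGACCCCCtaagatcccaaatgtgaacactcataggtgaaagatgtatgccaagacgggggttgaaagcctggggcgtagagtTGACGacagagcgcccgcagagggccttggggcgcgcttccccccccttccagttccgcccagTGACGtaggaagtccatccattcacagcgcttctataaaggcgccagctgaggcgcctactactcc
Nr4a1, chr15:101266596-101266845: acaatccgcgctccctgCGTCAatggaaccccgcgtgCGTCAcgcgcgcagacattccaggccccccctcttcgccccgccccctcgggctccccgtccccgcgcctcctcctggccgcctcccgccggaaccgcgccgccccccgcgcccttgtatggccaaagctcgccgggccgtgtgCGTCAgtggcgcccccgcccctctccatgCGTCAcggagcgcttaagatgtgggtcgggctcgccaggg
Apold1, chr6:134981751-134982000: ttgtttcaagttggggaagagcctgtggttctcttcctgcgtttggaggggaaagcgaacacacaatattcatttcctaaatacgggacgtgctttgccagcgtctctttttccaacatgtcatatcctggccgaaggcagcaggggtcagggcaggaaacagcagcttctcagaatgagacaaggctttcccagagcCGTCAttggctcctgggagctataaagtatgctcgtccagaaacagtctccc
Cxcl1, chr5:90890995-90891244: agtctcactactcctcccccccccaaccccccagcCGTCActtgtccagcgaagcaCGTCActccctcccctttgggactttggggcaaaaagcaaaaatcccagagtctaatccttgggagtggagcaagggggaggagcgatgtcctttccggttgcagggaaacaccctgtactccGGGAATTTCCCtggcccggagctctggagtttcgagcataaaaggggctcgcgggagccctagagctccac
Cxcl2, chr5:90903649-90903898: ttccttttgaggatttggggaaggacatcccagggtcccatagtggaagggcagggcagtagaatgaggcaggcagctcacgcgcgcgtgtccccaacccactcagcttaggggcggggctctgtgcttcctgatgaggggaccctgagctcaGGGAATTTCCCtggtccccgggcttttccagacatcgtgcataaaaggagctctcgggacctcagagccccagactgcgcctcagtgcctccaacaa
Fos held TGACG at 129 to 125 and at 66 to 62 bases before its start, and an NF-kB match on the minus strand at 214 to 205. Nr4a1 held it 4 times, at 233 to 229, 213 to 209, 69 to 65 and 40 to 36 bases before the start, and Apold1 once, at 52 to 48. Cxcl1 had it at 215 to 211 and 194 to 190 and an NF-kB match close to the start, from base 71. Cxcl2 had no TGACG in this window and an NF-kB match from base 97, with the same letters in capitals as in Cxcl1. Matches are a description of letters and show no binding.

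The AP-1 family held the largest single rise of any list. AP-1 is a pair of Fos, Jun, Atf or Maf proteins that binds DNA as a dimer, and its composition changes as members are made. Fos, the founding member, read 6.97, 7.09, 7.28 and 7.35 on the air arrays (replicates 1 to 4) and 11.90, 12.18, 12.02 and 11.73 after HCN. Every HCN array was far above every air array, and the log2 change was 4.79 ± 0.60 (SE; adjusted p = 6.27e-08). Fosb, a second Fos protein, went from a range of 2.32 to 2.76 in air to one of 6.21 to 7.23 after HCN, a log2 change of 4.15 ± 0.26 (adjusted p = 1.70e-18). Atf3, a stress-induced partner of Jun that mostly represses, read 6.49, 6.88, 7.0 and 6.93 in air and 11.25, 11.21, 11.13 and 10.98 after HCN, again far apart (log2 4.32 ± 0.41, adjusted p = 9.24e-12). Junb and Jun rose by 2.88 ± 0.32 and 2.10 ± 0.22 on the log2 scale. The small Maf proteins Maff (1.13) and Mafk (0.57) and the constitutive member Jund (0.48) rose less, and Mafk overlapped between the groups. Of 13 members tested, 8 rose and 0 fell (61.5% against 1.43% of all genes), with a median log2 change of 0.6 against -0.011 over all genes. Fosl2 (0.60, adjusted p = 0.124; 0.61 and called on another probe set) and Fosl1 (0.15, adjusted p = 0.712) did not pass. The calls of Jund and Mafk were lost in 4 and 3 of the 8 fits that each left out 1 array, with log2 changes of 0.39 to 0.55 and 0.49 to 0.71.

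Early genes that respond to serum and to MAP kinases rose with AP-1. Egr1, a zinc-finger factor that relays growth and stress signals, read 7.78, 6.81, 6.92 and 6.79 in air and 11.34, 11.89, 11.95 and 12.05 after HCN. One air array, replicate 1, was higher than the other 3, and the groups stayed far apart (log2 4.73 ± 0.41, adjusted p = 3.70e-13). Its relative Egr2 rose from 3.18 ± 0.30 to 6.48 ± 0.17 (SD, n = 4), from a level near the filter, and Egr3 by only 0.43. Ier2, a nuclear early gene of serum stimulation, rose by 2.49 ± 0.22 and Csrnp1, a nuclear protein induced by AXIN, by 2.02 ± 0.27. Smaller rises were those of the proto-oncogene Myc (1.13), the polo-like kinases Plk2 (1.10) and Plk3 (0.73), the pseudokinase Trib1 (0.94) and the small GTPase Rhob (0.93). In all, 10 of 17 members rose and 0 fell (58.8%, against 1.43% of all genes), with a median log2 change of 0.927. Ier5 (1.07, adjusted p = 0.0681) and the CREB-regulated kinase Sik1 (0.91, adjusted p = 0.119) lay just outside the threshold. Egr3 lost its call in 4 of the 8 fits without 1 array (0.36 to 0.49).

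The Nr4a orphan nuclear receptors, which act without a ligand and are switched on by cAMP and calcium through CREB, rose as a group of 3. Nr4a1 read 8.44, 8.53, 8.87 and 9.02 in air and 11.32, 11.60, 11.30 and 11.27 after HCN, a log2 change of 2.65 ± 0.43 (adjusted p = 2.27e-05). Nr4a3 went from a range of 6.05 to 6.63 in air to one of 8.13 to 9.86 after HCN (2.58 ± 0.45) and Nr4a2 from a range of 3.44 to 4.05 in air to one of 4.58 to 6.01 after HCN (1.61 ± 0.33), neither with overlap. Dimmer probe sets of both differed: the median of the others was 0.13 for Nr4a3 and 0.06 for Nr4a2. Creb1 itself was lower by 0.56 ± 0.15 (adjusted p = 0.0261), a call lost in 5 of the 8 fits without 1 array (-0.49 to -0.65). The clock gene Per1, another CREB target, read 6.99 ± 0.38 in air and 7.58 ± 0.26 after HCN (adjusted p = 0.527). Across the 7 tested genes of the Nr4a and cAMP list 3 rose and 1 fell (42.9% and 14.3%, against 1.43% and 1.44% of all genes). Gem, a GTPase induced by calcium entry that restrains calcium channels, rose from 5.79 ± 0.18 to 8.23 ± 0.13 (5.42-fold).

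**Figure D1:**
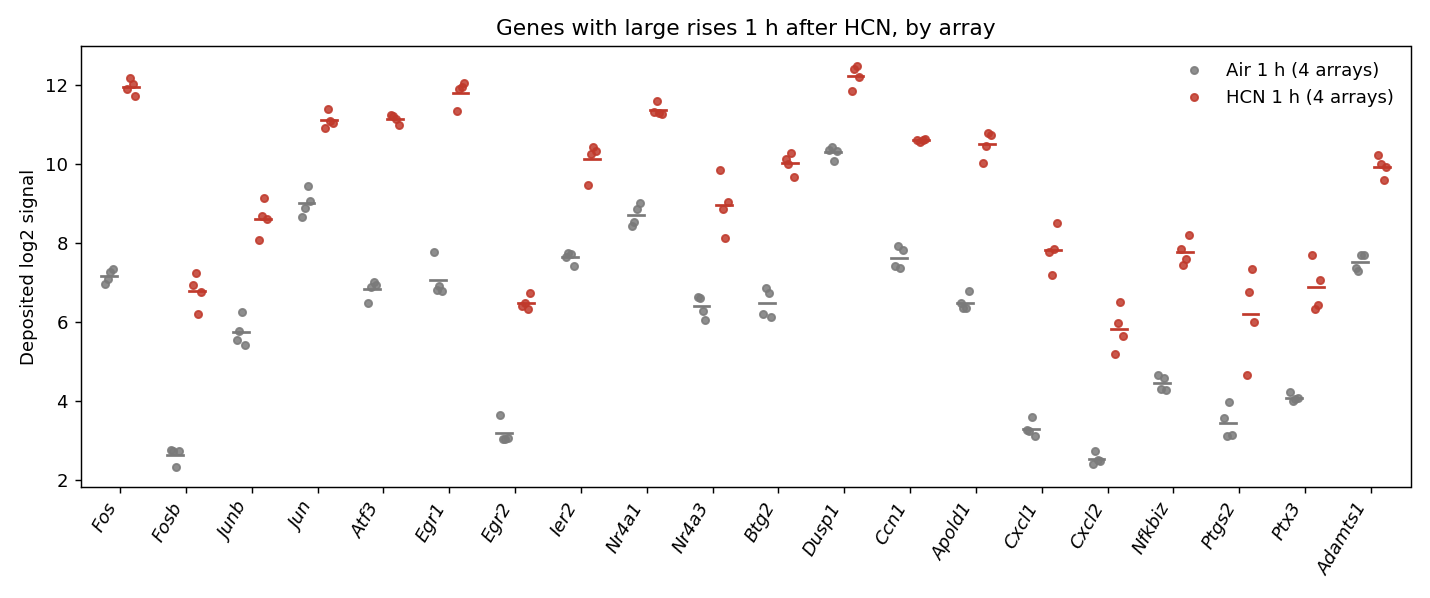
Deposited log2 signal (vertical axis) of 20 risen genes on each array, grey for the 4 air arrays and red for the 4 HCN arrays at 1 h; bars are group means. For every gene shown the lowest HCN array lies above the highest air array, closest for Ptgs2.

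Inhibitors of the same signals rose in the same hour. Of 19 tested genes for MAP kinase phosphatases, Sprouty proteins and related brakes, 7 rose and 0 fell on their brightest probe sets (36.8%, against 1.43% of all genes). The median log2 change was 0.414. Dusp1, the phosphatase that inactivates p38 and JNK, went from a range of 10.09 to 10.44 in air to one of 11.86 to 12.49 after HCN (1.93 ± 0.24, adjusted p = 3.16e-08). Errfi1, an inhibitor of the EGF receptor, rose by 1.93 ± 0.28 and Spry4, an inhibitor of receptor tyrosine kinase signalling, by 1.92 ± 0.30. Dusp7, an ERK phosphatase, fell on a second probe set by 0.97 ± 0.22 (adjusted p = 0.00423, no overlap), while its brightest had a log2 change of -0.59 (adjusted p = 0.0879). Dusp10 (1.2), the ERK phosphatase Dusp6 (0.72), the Ras-like Rasl11b (0.72) and the G-protein regulator Rgs16 (0.44) rose less. The last 3 lost their calls in 5, 4 and 5 of the 8 fits without 1 array (0.58 to 0.85, 0.57 to 0.87 and 0.31 to 0.55). Among regulators of mRNA decay, 2 of 10 tested genes rose (20%, against 1.43% of all genes). Btg2, which recruits the deadenylase to messages and is also a p53 target, ran from 6.11 to 6.87 in air and from 9.66 to 10.27 after HCN, with no overlap (3.53 ± 0.50, 11.6-fold). Zc3h12a, the Regnase-1 nuclease that cuts inflammatory messages, rose by 0.49. Otud1, a deubiquitinase, rose by 2.14 ± 0.27.

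Growth-arrest and p53-linked genes moved in both directions. Gadd45b rose from 6.58 ± 0.26 to 8.53 ± 0.16 and Gadd45g from 7.03 ± 0.37 to 9.28 ± 0.18, while Gadd45a, the member most tied to p53, read 7.15 ± 0.49 and 7.39 ± 0.36 (adjusted p = 0.794). These proteins bind stress kinases and halt the cell cycle. In the list of 18 p53 targets and apoptosis genes 4 rose and 2 fell (22.2% and 11.1%, against 1.43% and 1.44% of all genes). The median log2 change was 0.0887, against -0.011 over all genes. The risers were Btg2, the BH3-only protein Pmaip1 (1.37), its survival opponent Mcl1 (0.49) and the NF-kB adaptor Bcl10 (0.45). Trp53inp1 and Sesn1, a stress-induced inhibitor of mTORC1, were lower by 0.93 and 0.34, each a call lost in 6 of the 8 fits without 1 array (-0.83 to -1.04 and -0.29 to -0.40). In the integrated stress response, Ppp1r15a, which restarts translation by dephosphorylating eIF2-alpha, rose by 1.62 ± 0.21 (adjusted p = 1.89e-07). Cebpg, a C/EBP protein that pairs with Atf4, fell by 0.54 ± 0.11, and the other 19 of 21 members did not pass. Atf4 (0.14) and Ddit3 (0.33, adjusted p = 0.392) were among them.

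Chemokines that call neutrophils and monocytes rose from low levels. Cxcl1 read 3.26, 3.24, 3.58 and 3.10 in air and 7.77, 7.18, 7.85 and 8.50 after HCN, a log2 change of 4.53 ± 0.32 (adjusted p = 4.08e-16). Cxcl2, the second ligand of the neutrophil receptor Cxcr2, read 2.40, 2.74, 2.49 and 2.48 in air and 5.18, 5.98, 6.51 and 5.65 after HCN (3.30 ± 0.19, adjusted p = 5.69e-20). All 4 HCN arrays were above all 4 air arrays for both. The monocyte chemokines Ccl7 (1.31 ± 0.29) and Ccl2 (1.23 ± 0.34, adjusted p = 0.0274) rose less, and Ccl4 rose by 0.50 with overlap. Ccl2 and Ccl4 lost their calls in 6 and 3 of the 8 fits without 1 array (1.14 to 1.33 and 0.42 to 0.63). Of 18 tested chemokines 5 rose and 0 fell (27.8%, against 1.43% of all genes), with a median log2 change of 0.379. Neutrophil marker genes held 0 called of 8 tested, where 2.87% of all genes were called, so a list this short says little. Their mean level was 3.65 to 5.51 in air and 3.83 to 4.26 after HCN, and Cxcr2 and Mmp8 lay below the filter level of 3.23. Macrophage markers held 0 called of 10, at 7.71 to 8.17 and 8.05 to 8.14.

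NF-kB is a transcription factor held in the cytoplasm by inhibitors that it also induces. Nfkbiz, a nuclear co-activator of the IkB family, read 4.65, 4.29, 4.59 and 4.28 in air and 7.84, 7.45, 7.58 and 8.21 after HCN (3.32 ± 0.27, adjusted p = 3.67e-14), and its other probe sets had a median of 1.2. The classical inhibitor Nfkbia, IkB-alpha, was already bright and rose from a range of 9.36 to 10.02 in air to one of 10.83 to 11.02 after HCN (1.27 ± 0.15). The ubiquitin editor Tnfaip3, A20, rose by 1.60 ± 0.23, though its other probe set had a log2 change of 0.26. Ptgs2, the inducible cyclooxygenase, went from 3.56, 3.10, 3.97 and 3.14 in air to 4.66, 6.77, 7.35 and 5.99 after HCN. Its HCN arrays spread widely, and none reached down to air (2.75 ± 0.44, adjusted p = 2.40e-05; 1.10 on its other probe set). The subunit Rel rose by 1.04 ± 0.21. That made 5 of 16 members higher and 0 lower (31.2%, against 1.43% of all genes), with a median log2 change of 0.222.

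In the IL-6 family, a set of cytokines that signal through gp130 and Stat3, 4 of 17 tested genes rose and 0 fell (23.5%, against 1.43% of all genes). Il6 went from a range of 2.44 to 2.81 in air, below the filter level, to one of 3.34 to 4.31 after HCN (1.18 ± 0.19, adjusted p = 4.03e-05). The feedback inhibitor Socs3 rose by 1.37 ± 0.30, the kinase Pim1 by 1.29 ± 0.26 and Socs2 by 0.53. Socs2 lost its call in 7 of the 8 fits without 1 array (0.43 to 0.59), and Lif read 3.16 ± 0.07 and 3.56 ± 0.22 (adjusted p = 0.11). The list's median log2 change was -0.0459. Of 8 acute-phase secreted proteins only Ptx3, a pentraxin made by endothelium and macrophages, passed. It went from 4.22, 3.99, 4.05 and 4.07 in air to 7.68, 6.34, 6.42 and 7.06 after HCN (2.79 ± 0.34, adjusted p = 3.41e-08), while Lcn2 read 5.72 ± 0.58 and 5.16 ± 0.51.

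Genes of the vessel wall moved in both directions. Apold1, an endothelial early gene, read 6.47, 6.36, 6.36 and 6.77 in air and 10.03, 10.45, 10.79 and 10.73 after HCN (4.01 ± 0.43, adjusted p = 6.07e-10). The arterial endothelial factor Sox17 rose by 1.24 ± 0.27 and the GTPase Rnd1 by 0.64, whereas Sox18, a close relative of Sox17, fell by 1.07 ± 0.20 (adjusted p = 0.000358) with no overlap. Cldn5, the main claudin of endothelial tight junctions, rose from 7.45 ± 0.16 to 9.22 ± 0.39. The 16 tested genes of endothelial growth factor signalling and activation held 3 that rose and 1 that fell (18.8% and 6.25%, against 1.43% and 1.44% of all genes). The endothelial markers held 1 riser among 8, Emcn, by 0.45, and their mean level ran from 8.74 to 8.89 in air and from 8.85 to 9.05 after HCN. Rnd1 and Emcn lost their calls in 4 and 5 of the 8 fits without 1 array (0.55 to 0.77 and 0.37 to 0.54). Of 9 leukocyte adhesion molecules 0 passed, where 2.87% of all genes did, and 8 of the 9 were on the higher side, as were 47.5% of all genes. Selp, P-selectin, was the nearest (0.63 ± 0.19, adjusted p = 0.0544), and Icam1 and Vcam1 had log2 changes of 0.37 and 0.37 (adjusted p = 0.409 and 0.218).

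Among secreted and matrix-linked genes, Ccn1, an early matricellular protein and target of YAP and serum response factor, rose from a range of 7.37 to 7.91 in air to one of 10.56 to 10.64 after HCN (2.97 ± 0.31, 7.86-fold). Its sister Ccn2 read 11.22 ± 0.19 and 11.69 ± 0.15 (adjusted p = 0.273). Adamts1, a secreted metalloprotease, rose by 2.42 ± 0.25 and Plaur, the urokinase receptor, by 1.26 ± 0.16. They were 2 of 10 tested genes of clotting and fibrinolysis (20%, against 1.43% of all genes). Tissue factor, F3, had a log2 change of 0.55 (adjusted p = 0.29). Of 18 vasoactive genes 2 rose (11.1%, against 1.43% of all genes), the vasodilator peptide Adm (0.91 ± 0.18) and angiotensinogen, Agt (1.43 ± 0.32), and endothelin Edn1 had a log2 change of 0.30 (adjusted p = 0.431). The shear-responsive factors Klf2 (1.57 ± 0.28) and Klf4 (1.12 ± 0.24) and the injury-responsive Klf6 (1.46 ± 0.20) rose, while Klf15, a glucocorticoid-induced regulator of cardiac metabolism, fell by 0.84 ± 0.20. In the list of 24 genes of Id proteins, Smads and BMP and TGF-beta signalling, 4 rose and 0 fell (16.7%, against 1.43% of all genes). These were Id1 (1.01 ± 0.16), Hes1 (0.59), Bmp2 (0.59) and Heyl (0.68). The last 3 lost their calls in 6, 6 and 5 of the 8 fits without 1 array (0.46 to 0.69, 0.51 to 0.68 and 0.57 to 0.84), and the other probe sets of Heyl had a median of -0.12.

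**Figure D2:**
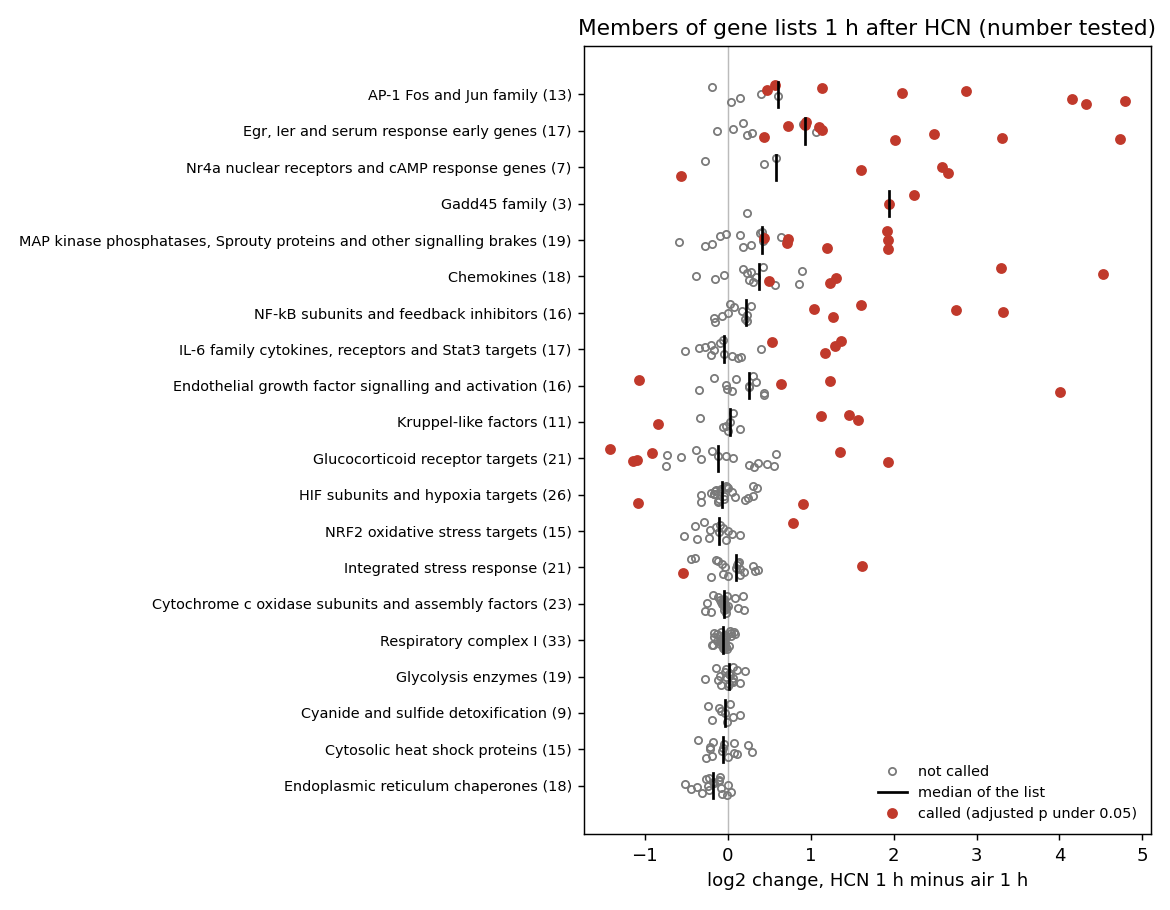
Log2 change at 1 h, HCN minus air (horizontal axis), of every tested member of 20 gene lists, with the number tested in brackets. Filled red points were called at an adjusted p of 0.05, open points were not, and black bars are list medians. Early response lists reach log2 4.79. No member of the cytochrome c oxidase, complex I, glycolysis or detoxification lists was called, where 2.87% of all genes were.

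Targets of the glucocorticoid receptor moved both ways. Of 21 tested, 4 fell and 2 rose (19% and 9.52%, against 1.44% and 1.43% of all genes), with a median log2 change of -0.114, or 0.0653 when each gene is the median of its probe sets. Zbtb16, a zinc-finger repressor, read 8.71, 8.66, 8.78 and 8.74 in air and 7.29, 7.09, 7.36 and 7.48 after HCN, a fall of 1.42 ± 0.31 with no overlap (adjusted p = 0.00343). Fkbp5, the co-chaperone that dampens the receptor, read 8.83, 9.42, 8.94 and 8.79 in air and 7.58, 8.07, 8.03 and 7.92 after HCN (-1.10 ± 0.28, adjusted p = 0.0185; -0.69 on its other probe set). It lost its call without replicate 1 of the HCN group (-0.99) or replicate 2 of the air group (-0.96). Pik3r1, the regulatory subunit of PI3-kinase, fell by 0.91 ± 0.11 (adjusted p = 2.20e-08), and its other probe sets had a median of -0.81. Fam107a, an actin-binding stress gene, fell by 1.14 ± 0.34, a call lost in 7 of the 8 fits without 1 array (-1.01 to -1.30). The risers were the kinase Sgk1 (1.36 ± 0.21) and Errfi1, which is also a member of the list of signalling brakes. Tsc22d3 (-0.38, adjusted p = 0.268) and Pdk4 (-0.74, adjusted p = 0.28) did not pass.

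The air group itself had its highest means for these genes at 1 h. In the order 1, 2, 4 and 24 h, Fam107a averaged 9.27 ± 0.29, 8.34 ± 0.35, 6.46 ± 0.29 and 5.58 ± 0.59 in air (SD, n = 4 each). After HCN it averaged 8.13 ± 0.37, 9.58 ± 0.34, 9.61 ± 0.62 and 6.61 ± 0.51. Fkbp5 went through 9.0 ± 0.29, 8.53 ± 0.27, 7.81 ± 0.26 and 6.14 ± 0.42 in air and through 7.90 ± 0.22, 8.96 ± 0.56, 9.57 ± 0.55 and 6.84 ± 0.64 after HCN. The HCN arrays at 1 h were thus below the 1 h air level but above the air level of 24 h for both. Zbtb16 had the same order, at 8.72 ± 0.05, 8.55 ± 0.36, 6.55 ± 0.47 and 6.0 ± 0.15 in air and 7.31 ± 0.16, 8.54 ± 0.70, 9.22 ± 0.17 and 6.41 ± 0.97 after HCN. The change of the air groups over time was not tested.

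Messages of the respiratory chain, the direct site of cyanide's action, yielded few calls. Only 2.87% of all genes were called, so lists of this size could be expected to hold few or none. Of 23 tested subunits and assembly factors of cytochrome c oxidase 0 passed, with log2 changes from -0.273 to 0.195 and a median of -0.0496. The subunit Cox4i1 read 13.19, 13.17, 13.15 and 13.11 in air and 13.11, 13.15, 13.10 and 13.20 after HCN (-0.02 ± 0.03, adjusted p = 0.877), and the groups overlapped. Of 33 complex I genes 0 passed on their brightest probe sets, within -0.184 to 0.0919. Ndufab1, the acyl carrier protein of complex I, was an exception on a second probe set, which read 7.99, 7.36, 7.54 and 7.30 in air and 5.73, 6.70, 6.66 and 6.82 after HCN with no overlap. That was a fall of 1.07 ± 0.29 (adjusted p = 0.0233), lost in 3 of the 8 fits without 1 array (-0.82 to -1.19), while the brightest probe set had a log2 change of -0.07 ± 0.05 and the 3 other probe sets together a median of -0.10. A second probe set of Ndufv2 fell by 0.23 with overlap. Of 28 genes of complexes II and III and ATP synthase 1 passed. Sdhb, a subunit of succinate dehydrogenase, fell by 0.13 ± 0.03 and lost its call in 4 of the 8 fits without 1 array (-0.11 to -0.15). The limma test called 0 of 19 glycolysis genes and 0 of 9 genes of cyanide and sulfide detoxification, where the rhodanese Tst had a log2 change of -0.24 and Mpst one of -0.04. Ogdh of the citric acid cycle was lower by 0.50 with overlap, lost in 5 of the 8 fits without 1 array (-0.36 to -0.63).

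Fatty acid oxidation had 2 called of 20, both lower (10%, against 1.44% of all genes). These were the regulator Ppara (-0.73 ± 0.20, adjusted p = 0.0305), lost in 6 of the 8 fits without 1 array (-0.67 to -0.77), and Acadl (-0.17 ± 0.04), whose other probe set had a log2 change of 0.18. Of 26 HIF subunits and hypoxia targets 1 rose and 1 fell (3.85% each, against 1.43% and 1.44% of all genes). They were Adm and Ankrd37, which was lower by 1.09 ± 0.27 and lost its call without replicate 1 of the HCN group (-0.95) or replicate 3 of the air group (-0.86). The glucose transporter Slc2a1 (-0.02), Hif1a (0.31) and Vegfa (0.30) did not pass. Of 15 genes tested in the list for NRF2 and oxidative stress only Txnip rose (6.67%, against 1.43% of all genes), by 0.78 ± 0.21. The list does not say in which direction NRF2 acts on a member. Its call was lost in 5 of the 8 fits without 1 array (0.73 to 0.82), and the NRF2 target haem oxygenase, Hmox1, read 5.80 ± 0.52 and 5.69 ± 0.43. The factor's own gene, Nfe2l2, rose on one probe set, from 3.17 ± 0.25 in air, below the filter level, to 5.71 ± 0.29, while its other probe set had a log2 change of -0.22. Among 15 genes of cardiac stretch only Xirp1, an actin-binding protein of the intercalated disc, rose (6.67%, against 1.43% of all genes), by 0.83 ± 0.21. It lost its call without replicate 1 of the HCN group (0.72) or of the air group (0.73). Nppb, the natriuretic peptide BNP, had a log2 change of 0.53 ± 0.24 (adjusted p = 0.264) and Nppa one of 0.00. By the same test 0 genes passed in the lists of potassium channels, calcium handling, adrenergic receptors, circadian clock, endoplasmic reticulum chaperones, heat shock proteins, interferon response, cell cycle, proteasome or collagens, which hold 14 to 22 tested genes each apart from adrenergic receptors with 12. Over all genes 2.87% passed.

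The largest falls were spread over nuclear and regulatory genes. Zfp866, a zinc-finger gene, fell most among probe sets with a symbol, from 5.65, 5.55, 5.89 and 5.87 in air to 3.76, 3.95, 4.10 and 4.64 after HCN (-1.63 ± 0.21, adjusted p = 9.05e-08). The groups did not overlap. The stress kinase Map3k6 fell from a range of 5.51 to 5.91 in air to one of 4.26 to 4.46 after HCN (-1.38 ± 0.27) and the ubiquitin ligase Hecw2 by 1.28 ± 0.23, against -0.40 on its other probe set. Rbm25, a splicing factor, was lower by 1.27 ± 0.24 on one probe set, against a median of -0.24 on its others. The exonuclease Exo5 fell by 1.15 ± 0.19 and Zfp606 by 1.04 ± 0.20. Rc3h1, the RNA-binding protein Roquin that destabilizes inflammatory messages, fell from a range of 8.28 to 8.61 in air to one of 7.37 to 7.51 after HCN (-0.94 ± 0.12, adjusted p = 2.24e-07). The cold-inducible Rbm3 was the 1 called gene of 13 splicing regulators (-0.79 ± 0.16). Ccnt2, a cyclin of the transcription elongation factor P-TEFb, fell by 0.95 ± 0.24 and lost its call in 3 of the 8 fits without 1 array (-0.84 to -1.08). Besides Dusp7, Ndufab1, Ndufv2 and Fosl2, 7 list genes that did not pass on their brightest probe set passed on another: Adamts9, Btg1, Lats2 and Rnd3 higher, and Cd36, Flt1 and Klf3 lower. No symbol was given for 82 of the 349 falls and 89 of the 369 rises.

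**Figure D3:**
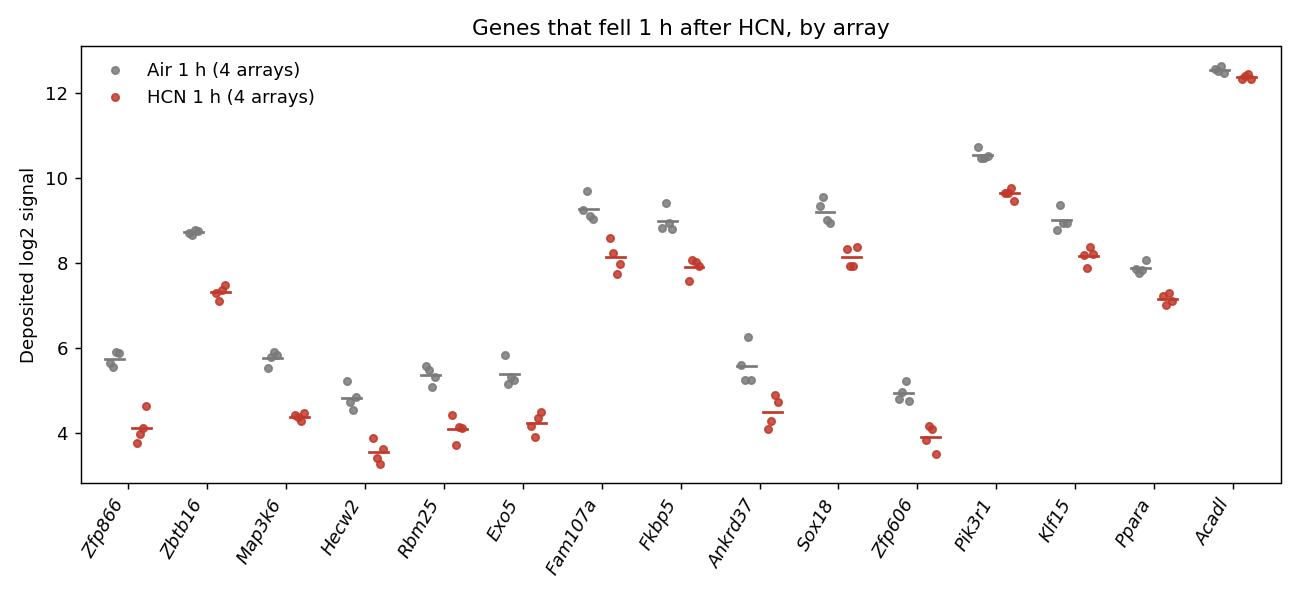
Deposited log2 signal (vertical axis) of 15 genes that fell 1 h after HCN, on each of the 4 air arrays (grey) and 4 HCN arrays (red); bars are group means. The groups do not overlap for any gene shown, and the differences of the means run from 0.17 for Acadl to 1.63 for Zfp866 on the log2 scale.

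Injected KCN asks whether the hour-old response depends on how cyanide entered. That comparison uses its own 4 KCN and 4 saline arrays, so no array is shared. Route, dose and the form of cyanide differ together and cannot be told apart. Of the 369 probe sets that rose after HCN, 113 also rose after KCN (30.6%, or 27% of the 419 that rose after KCN), where 1.57% of all probe sets rose. Of the 349 that fell, 90 also fell after KCN (25.8%, or 13.3% of 675), against 2.52% of all. None of the 718 was called in the opposite direction after KCN. Some had a change of the opposite sign that did not pass, such as Atp2b1 (-0.49 after HCN and 0.39 after KCN). The difference between the 2 changes passed for 53 probe sets (0.198%), 44 higher (0.164%) and 9 lower (0.0336%) with HCN. Of the 44, 20 were HCN rises and 23 were probe sets that fell after KCN. The actin 3' to 5' ratio was 0.48 ± 0.0799 after KCN and 0.841 ± 0.172 in saline (SD, n = 4), and a fit with it as a covariate called 44 probe sets. Of 8 airway and lung markers 4 rose and 0 fell after KCN (over all genes 1.73% and 2.51%), with a list median of 6.44 against -0.468 after HCN, and a fit adjusted for airway transcripts called 47.

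The neutrophil chemokines rose more with inhaled HCN. Cxcl2 had a log2 change of 3.30 after HCN and of 0.55 ± 0.19 after KCN, where it did not pass (adjusted p = 0.0879), and the difference was 2.75 ± 0.27 (adjusted p = 4.01e-10). Its means in air (2.53 ± 0.14), saline (2.47 ± 0.17) and KCN (3.01 ± 0.69) all lay below the filter level, so these sizes rest on values at the low end of the scale. Cxcl1 had log2 changes of 4.53 and 1.35 ± 0.32, a difference of 3.18 ± 0.46 (adjusted p = 3.01e-05). Its KCN arrays spread widely, at 4.43 ± 1.44 against 3.08 ± 0.29 in saline (SD, n = 4). Fosb (2.34 ± 0.37), Nfkbiz (2.18 ± 0.38), the one Nfe2l2 probe set (2.19 ± 0.36) and Ier2 (1.48 ± 0.31) also rose more with HCN, and all but Ier2 passed in every fit without 1 of the 16 arrays. Ier2 lost its call in 2 of them (1.14 to 1.90). Fosb, Nfkbiz and Ier2 also lost their calls when only the groups compared were fitted. Their KCN arrays spread widely too, at 4.76 ± 1.10, 5.89 ± 1.24 and 8.43 ± 0.97 (SD, n = 4). In saline these 3 genes read 2.94 ± 0.26, 4.75 ± 0.17 and 7.43 ± 0.24. Fosb and the Nfe2l2 probe set had air and saline means below the filter level. For Fos the changes were 4.79 and 2.66, a difference of 2.13 ± 0.86 that did not pass (adjusted p = 0.413; 95% interval 0.41 to 3.85). Egr1 (2.27 ± 0.57, adjusted p = 0.0743) and Apold1 (2.04 ± 0.61, adjusted p = 0.178) did not pass either. Spry4 was called on a dimmer probe set (1.87 ± 0.21, adjusted p = 4.82e-08) and not on its brightest (1.07 ± 0.43, adjusted p = 0.414). The second Ndufab1 probe set fell by 2.98 after KCN, and the difference was 1.91 ± 0.40 (adjusted p = 0.0115, and 0.0596 with airway transcripts as a covariate). Pttg1ip had one of the largest differences (2.80 ± 0.37), as it fell by 3.09 after KCN and had a log2 change of -0.29 after HCN. The genes lower with HCN had small changes on both sides, such as Ankrd17 at -0.28 after HCN and 0.46 after KCN. Ankhd1, Atp2b1, Kif5b and Itpkc had differences of -0.89 ± 0.20, -0.88 ± 0.20, -0.82 ± 0.18 and -0.80 ± 0.19, and lost their calls in 7, 8, 7 and 11 of the 16 fits (-0.80 to -1.03, -0.79 to -0.95, -0.70 to -0.92 and -0.70 to -0.96).

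**Figure D4:**
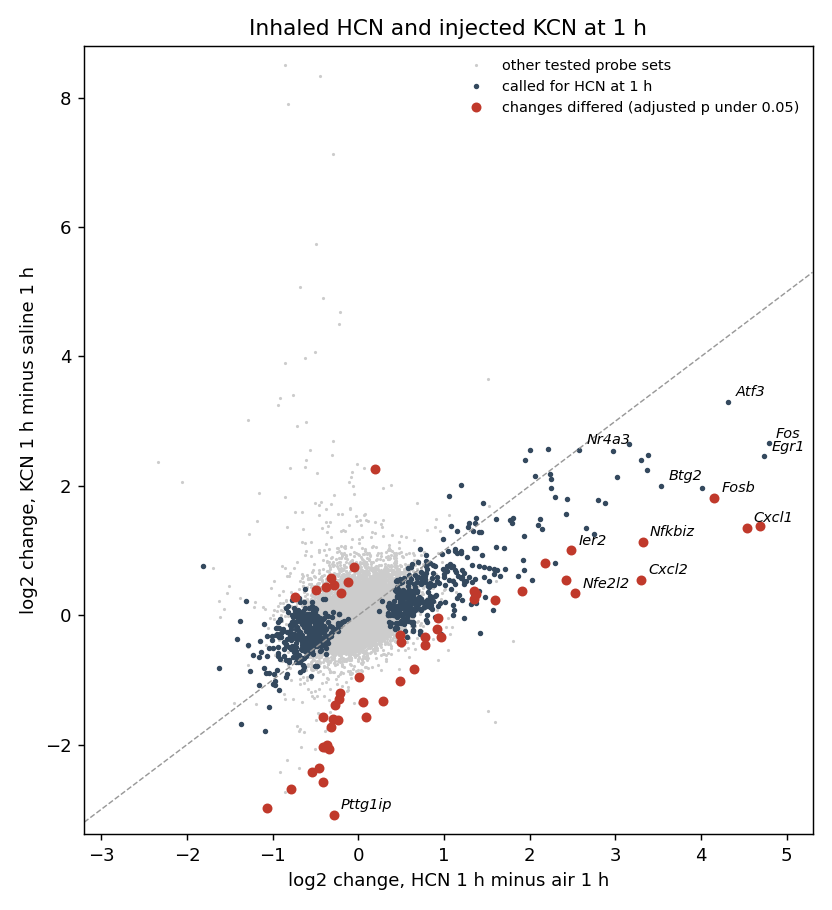
Log2 change at 1 h after injected KCN, KCN minus saline (vertical axis), against that after inhaled HCN, HCN minus air (horizontal axis), for all 26773 tested probe sets; the dashed line marks equal changes. Dark points were called for HCN and the 53 red points differed between the exposures, with Cxcl2 at 3.30 and 0.55.

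The 1 h arrays were the first taken, so neither a peak nor a start can be placed there. Some early genes had a smaller change at 2 h than at 1 h. Jun was 2.10 above air at 1 h and below it at 2 h (-0.81, adjusted p = 0.00409) and 4 h (-0.72, adjusted p = 0.0301), and its changes at 1 h and 2 h differed by 2.91 ± 0.31 (adjusted p = 3.21e-09). Ier2 went from 2.49 to -0.12, Fosb from 4.15 to 1.31, Cxcl2 from 3.30 to 0.63 and Egr1 from 4.73 to 2.43. The difference passed for each (adjusted p = 6.40e-08, 8.06e-07, 6.06e-10 and 0.0042). Fos went from 4.79 to 2.27 (adjusted p of the difference = 0.0387), a call lost in 10 of the 16 fits without 1 array (2.08 to 3.20). Other genes were still up at 4 h. Atf3 stood at 4.32, 4.59 and 3.88 at 1, 2 and 4 h, Nr4a3 at 2.58, 3.54 and 4.28, and Ptx3 at 2.79, 3.75 and 3.31. None of these 3 differed between 1 h and 2 h at the threshold (adjusted p = 0.815, 0.343 and 0.189). By 24 h all of the genes just named lay within -0.12 to 0.72 of air.

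Of the 21 glucocorticoid targets, 9 had a lower change at 1 h than at 2 h and 0 a higher one, where 3.8% and 8.88% of all genes did, and for 12 the difference did not pass. Fam107a differed by -2.38 ± 0.48 between 1 h and 2 h, Arrdc2 by -2.19 ± 0.61, Pdk4 by -1.96 ± 0.47 and Fkbp5 by -1.53 ± 0.40 (adjusted p = 0.000458, 0.0104, 0.00318 and 0.00661). Sgk1 (1.36 and 1.66) and Errfi1 (1.93 and 1.91) were up at both times, and Pik3r1 was down at both (-0.91 and -0.69). At 2 h, 12 of the 21 members were higher and 1 lower, where 6.96% of genes were higher and 18.3% lower, and the list's median was 1.04. Over all probe sets, 155 of the 369 rises at 1 h were called higher at 2 h (42%) and 40 lower (10.8%), while 8.79% and 16.5% of all probe sets were. At 4 h 76 were higher and 20 lower (20.6% and 5.42%, against 2.87% and 4.48% of all), and at 24 h 11 were higher and 32 lower (2.98% and 8.67%, against 5.08% and 9.24%). Of the 349 falls, 83 were called lower and 35 higher at 2 h (23.8% and 10%), 20 lower and 37 higher at 4 h (5.73% and 10.6%), and 16 lower and 38 higher at 24 h (4.58% and 10.9%). The difference between 1 h and 2 h passed for 3712 probe sets (13.9%), 2338 higher and 1374 lower at 1 h (8.73% and 5.13%), and for 1538 with the actin ratio as a covariate. That ratio was 1.22 ± 0.611 on the HCN arrays of 2 h against 0.452 ± 0.143 in air (SD, n = 4). Its part in the 2 h values was tested only by that covariate.

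**Figure D5:**
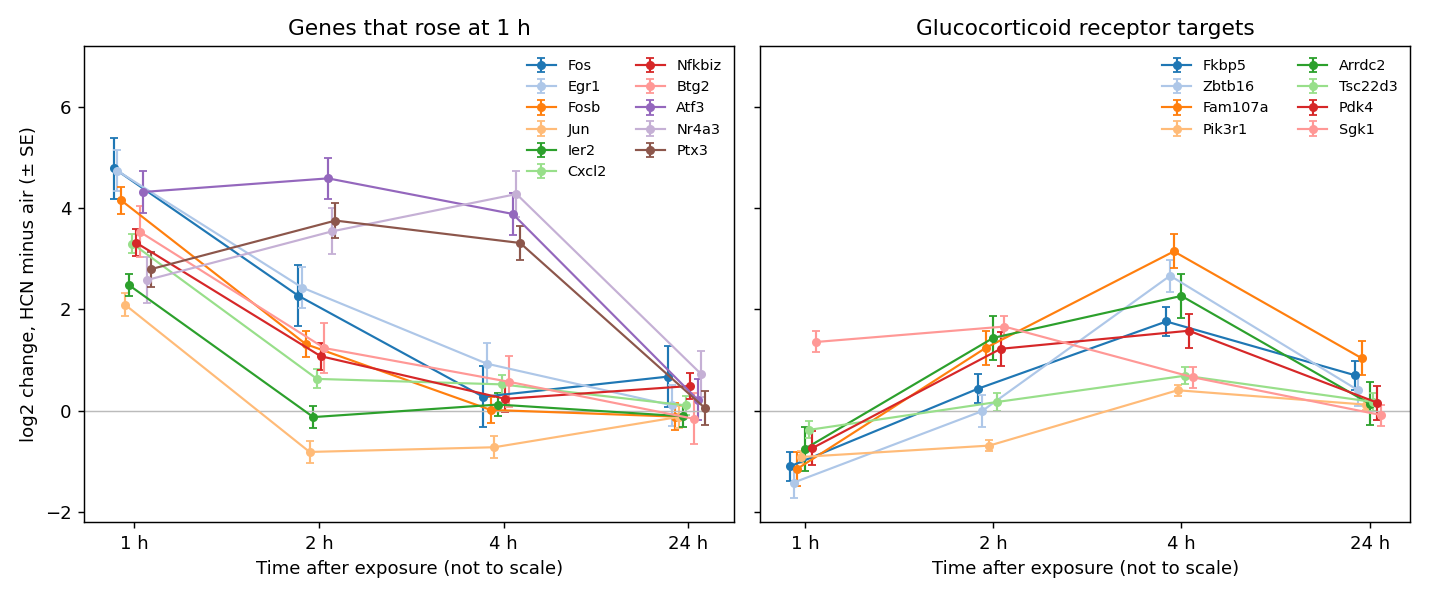
Log2 change after HCN, HCN minus air of the same time (vertical axis, bars are the SE of the fit), at 1, 2, 4 and 24 h (horizontal axis, not to scale), for 11 genes that rose at 1 h (left) and 8 glucocorticoid receptor targets (right). Jun and Ier2 are at or below 0 by 2 h while Atf3, Nr4a3 and Ptx3 are above 3 at 4 h; Fkbp5, Zbtb16 and Fam107a are below 0 at 1 h and above 1.5 at 4 h.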

How the data were processed

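The deposited log2 values of the series table were used as they are. The submitters' processing notes name MAS5, with no version or setting. Of 45141 probe sets, 104 controls were left out, 28898 had 1 symbol, 551 several and 15588 none, and 28689 of those with 1 symbol matched RefSeq by Entrez ID. Levels are compared only within a route of exposure, because the inhalation and injection arrays appear to have been normalized as separate sets.

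All 69 arrays in 18 groups were fitted in limma 3.58.1 (R 4.3.3; 51 residual degrees of freedom, eBayes with a trend). A probe set was tested if at least 1 group mean was above 3.23, the median of group means, which left 26773. P-values were adjusted over all of them by the Benjamini-Hochberg method and called under 0.05. Changes are differences of mean log2 values with the SE of the fit. P-values measure the spread between these arrays. No counts of molecules lie behind the values, so 4 arrays a group limit the precision.

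The 42 pathway lists (784 entries, 671 tested) and 15 marker lists (119 entries, 97 tested) and the members were chosen with earlier results of these data known. In a list a gene is its tested probe set of highest mean, elsewhere that of lowest p. Named genes were to be the 20 largest rises and 20 largest falls with 1 symbol and no overlap between groups, called list members with up to 5 uncalled ones a list, the 6 largest called differences in each direction, and a fixed set. Some of these are not described. Alternatives were other scalings, filters, variance models, covariates and sets of arrays, each array left out in turn, and a replicate block. The scripts were tested on simulated data.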

Additional observations from a re-analysis of the deposited data

Results flagged for a closer look

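An array was set apart when its gap to the nearest of its group of 4 passed Dixon's critical value, which chance does in about 1 group in 20. Of 288 groups of 4, 21 had such an array. Among early genes in air, Egr1 and Egr2 were high on replicate 1 (log2 7.78 and 3.64, the others 6.79 to 6.92 and 3.02 to 3.06), Trib1 and Pmaip1 on replicate 2 (5.76 and 3.33) and Plk3 on replicate 4 (3.67). Fosb was low on air replicate 3 (2.32). After HCN, replicate 2 was the highest array for Nr4a1 (11.6), Gadd45g (9.56), Cldn5 (9.79) and Pdk4 (12, the others 10.3 to 10.6), and replicate 4 for the NF-kB inhibitor Nfkbia (11). The lowest HCN arrays were replicate 1 for Tsc22d3 (9.95) and Id1 (9.9) and replicate 3 for Ccn2 (11.5), and replicate 1 for the second Ndufab1 probe set (5.73, the others 6.66 to 6.82). In air, Lcn2 was high on replicate 2 (6.58), Txnip on replicate 4 (10.9) and AI467606 on replicate 1 (6.99). The airway secretory transcripts were low on replicate 4 of both groups: Scgb1a1 read 5.33 in air and 2.89 after HCN, where the others read 11.8 to 12.3 and 11 to 12, and Bpifa1 read 3.21 in air.

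Of 39 differences between changes that were tested for named genes, 27 passed. Some of these genes were named because their difference passed, so this count says nothing about how common differences were. Over all probe sets 0.198% passed against KCN and 13.9% against 2 h. Against the change after KCN at 1 h, the change after HCN was higher for Cxcl1 (3.18), Pttg1ip (2.8), Cxcl2 (2.75), Fosb (2.34), Nfe2l2 (2.19), Nfkbiz (2.18), Ier2 (1.48) and the second probe sets of Ndufab1 (1.91) and Spry4 (1.87). It was lower for Ankhd1 (-0.894), Atp2b1 (-0.883), Kif5b (-0.816), Itpkc (-0.799) and Ankrd17 (-0.744). Against the change at 2 h, the change at 1 h was higher for Jun (2.91), Fosb (2.84), Cxcl2 (2.67), Ier2 (2.61), Fos (2.52), the second Spry4 probe set (2.39) and Egr1 (2.3). It was lower for the second Ndufab1 probe set (-1.75) and for the glucocorticoid targets Fam107a (-2.38), Arrdc2 (-2.19), Pdk4 (-1.96), Fkbp5 (-1.53) and Zbtb16 (-1.41), of which Zbtb16 lost its call in 2 of the 16 fits without 1 array (-1.21 to -1.74).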

How the results depend on the processing

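The count of 718 calls for HCN against air at 1 h was 451 when only the groups compared were fitted, 447 when at least 1.5-fold was also asked, and 357 with 1 probe set per gene, which tests fewer features. It ran from 474 (without replicate 4 of the HCN group) to 647 (without replicate 2 of the air group) as each array was left out. Other settings gave 518 to 804. The difference between the HCN and KCN changes, 53 calls, was 33 with the stricter filter and 125 when only the groups compared were fitted, and 39 to 79 with an array left out. The difference between 1 h and 2 h, 3712 calls, was 1686 when only the groups compared were fitted and 1538 with the actin ratio as a covariate, and 2935 to 4085 with an array left out. The actin difference of -0.0875 ran from -0.148 to -0.0376 and was -0.0866 for Gapdh. Apart from the fits that test fewer features or use fewer arrays, the cause was not tested. Of 105 called gene results, 77 kept their call whichever of the 8 arrays was left out, 75 under every alternative that tested them, and 0 reversed. The stricter filter tested only 82 of the 105. Of 27 called differences between changes, 7 lost their call when only the groups compared were fitted (Fosb, Nfkbiz, Ier2, Ankrd17, Kif5b and Itpkc against KCN, Arrdc2 against 2 h) and 4 with the actin covariate (Atp2b1, Kif5b, Ankhd1 and Itpkc); 2 lost it with the airway covariate (Itpkc and the second Ndufab1 probe set), 2 with no filter (Itpkc against KCN, Fos against 2 h) and 1 with quantile normalization (Itpkc).

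With the replicate number as a block the counts were 693 (597 shared), 53 and 3807, and 3 of the 27 differences lost their call (Atp2b1, Ankhd1 and Itpkc). Same-numbered HCN and air arrays deviated together weakly (r of 0.0222, 0.222, 0.0628 and 0.214). The mean r with other numbers was -0.0148, -0.0584, -0.0149 and -0.0859, and 3 of 4 correlated best with their own number. The titles state no pairing and the main fit used none. Whether the numbers mark a pairing was not tested.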

Other observations

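Genes whose symbol is Zfp and a number fell more often than they rose. The set leaves out other zinc-finger genes such as Egr1 and Klf2, which rose. It was seen in the data and is given with no test. Of 262 such genes tested, 25 fell (9.54%) and 0 rose in the limma fit, against 1.44% and 1.43% of all genes. Their median log2 change was -0.152 against -0.0113, and 192 of the 262 were negative. They are dim, with a median air level of 4.94 against 6.44 over all genes, and of 3016 other genes in the middle range of their level 1.62% fell. Zfp866 (-1.63), Zfp606 (-1.04), Zfp189 (-0.85) and Zfp955a (-0.65) were among those lower. The groups did not overlap for 24 of the 25, nor for 84.5% of all called falls. With quantile normalization 25 fell and with each array centred on its median 24, with 0 rises in either. After KCN 27 of the 262 fell (10.3%, against 2.51% of all genes) and 0 rose.

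AI467606 read 6.99 on air replicate 1 and fell by 1.31 after HCN, a call lost without that array (-0.97). Rag1, a gene of lymphocyte development, ran from 2.49 to 8.02 in air and from 2.68 to 2.85 after HCN (limma, adjusted p = 0.297).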
